A study of Mus musculus with 25 samples.

Results

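The elastic fibre and microfibril genes Eln, Fbn1, Mfap2, Mfap4, Mfap5, Fbln1, Fbln2, Fbln5, Efemp2 and Emilin1 were followed in macrophages and fibroblasts sorted from mouse lung and skin. They were chosen by name, from their known place in the elastic fibre and with earlier results of these data known. The Ensembl identifiers of the deposited tables were matched to these symbols. All 10 were found in both tables, among 11866 genes in lung and 12661 in skin. The mice were of the C57BL/6 strain. Neutrophil-depleted mice were Mrp8_CRE; Rosa26_DTR, in which Cre under the promoter of Mrp8 (S100a8, a gene expressed chiefly in neutrophils) acts on a diphtheria toxin receptor allele at Rosa26. Control mice were Mrp8_WT; Rosa26_DTR and so carried the receptor allele without Cre. Mice of both genotypes received diphtheria toxin at 10 µg per kg into the peritoneum for 7 days, so no group is free of the toxin. The labels give neither the age of the mice nor a statement that numbered replicates are separate animals, so p-values here measure only how far these samples spread, and that spread may be technical.

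Lung interstitial macrophages had been sorted as CD45+, CD68+, F4/80+, CD11c- and CD11b-high cells, and skin macrophages as CD45+, CD11b+, CD68+ and F4/80+ cells. Fibroblasts were CD45-, CD31-, EPCAM- and PDGFRA+, and those of skin were also CD90.1+. In lung, 12 libraries make up 4 groups of 3, and in skin 13 libraries comprise 3 depleted and 3 control fibroblast, and 4 depleted and 3 control macrophage libraries. Lung libraries held 124075 to 385923 estimated reads and skin libraries 6553115 to 27259903, so 1 read weighed 2.997 to 6.81 units of signal in lung and 0.0371 to 0.162 in skin. "Signal" below is the authors' normalised value, which is on a linear scale. The lung and skin tables were normalised separately, and no test was made between them.

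The fibroblast markers (Pdgfra, Col1a1, Col1a2, Col3a1, Dcn, Lum, Pdgfrb and, in skin, Thy1) and the macrophage markers (Ptprc, Cd68, Adgre1, Itgam, Csf1r, Mrc1, C1qa and Fcgr1) followed the cell type labels in 23 of the 25 libraries. The exceptions are the libraries labelled skin control macrophages 1 and 5, of which the latter bears a title that names it MFIBRO. Their fibroblast markers summed to 8.31% and 10.2% of the signal, against 0.0217% to 0.178% in the other skin macrophage libraries and 5.16% to 10.2% in skin fibroblast libraries. Both were kept apart from every group, which leaves a single control library for skin macrophages. In bulk libraries, fewer cells of a type and less RNA per cell cannot be told apart.

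Elastic fibres are the part of the extracellular matrix that lets lung and skin stretch and recoil. They consist of a core of cross-linked elastin, the product of Eln, laid down on a scaffold of microfibrils whose backbone is fibrillin, the product of Fbn1. Mfap2 and Mfap5 encode small glycoproteins that bind fibrillin, and Mfap4 encodes a fibrinogen-related glycoprotein found on microfibrils and elastin. The fibulins are matrix glycoproteins, of which those encoded by Fbln5 and Efemp2 are needed to build elastic fibres. Fbln1 and Fbln2 encode family members present in elastic fibres and basement membranes. Emilin1 encodes a glycoprotein at the boundary of elastin and microfibrils. Fibroblasts make most of these proteins in the dermis and the lung interstitium, and neutrophils carry an elastase that can cleave elastin.

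In the GENCODE M21 annotation of GRCm38 all 10 are protein-coding genes, and the values count reads over their transcripts. Eln lies on the minus strand of chr5:134702593-134747323, Emilin1 on the plus strand of chr5:30913402-30921277 and Fbn1 on the minus strand of chr2:125300594-125507993. Mfap2 occupies chr4:141010418-141015984, Mfap4 chr11:61485431-61488900 and Mfap5 chr6:122505845-122529290, each on the plus strand. Among the fibulins, Fbln1 lies at chr15:85205949-85286535, Fbln2 at chr6:91212455-91272540 and Efemp2 at chr19:5473954-5482517, on the plus strand, and Fbln5 at chr12:101746565-101819055 on the minus strand. Some exons share bases with genes on the other strand, namely 4.63% of the exonic length of Mfap4 with Mapk7 and 4.57% of that of Efemp2 with Mus81. Exons of Fbn1 (20.1% with Gm9913) and Eln (3.30% with Gm30003) are shared with genes that are in neither table. Whether reads were counted by strand is not given in the sources used here, so reads from these stretches cannot be assigned to a strand.

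Fbln1 and Fbln5 are shown by their upstream sequence because the ratio of Fbln1 to Fbln5 within a library differed between the organs, as described below. RefSeq promoter windows (GRCm38.p6) were at hand for 7 of the 10 genes, and 100 bases before the start of the first window of each, 5′ to 3′ on the strand of the gene, are given for 2 of them, from stretches that overlap no annotated exon. Capitals mark the GC box, letters GGGCGG on either strand. The stretches are chr15:85205849-85205948 on the plus strand and chr12:101819120-101819219 on the minus strand. The RefSeq start used for Fbln5 lies outside the GENCODE gene given above, and its first bases match no GENCODE transcript of Fbln5.
Fbln1: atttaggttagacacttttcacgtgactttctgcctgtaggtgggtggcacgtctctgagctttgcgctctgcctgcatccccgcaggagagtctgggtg
Fbln5: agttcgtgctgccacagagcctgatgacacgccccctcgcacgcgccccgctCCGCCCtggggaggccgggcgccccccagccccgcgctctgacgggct
Of these 100 bases, 55 were G or C upstream of Fbln1 and 77 upstream of Fbln5. The 250 bases before this start held no GC box for Fbln1 and 2 for Fbln5, where 32.7% of 32851 such upstream windows in the table hold at least 1. A CCAAT box, letters CCAAT on either strand, occurred once before Fbln5 and not before Fbln1 (33.8% of windows). Neither held TATAAA (12.4% of windows) or TGANTCA (6.75% of windows), searched on both strands. The contrast does not extend to the second RefSeq window of either gene, which has another start. There Fbln1 has 1 GC box, and Fbln5 has 0 GC boxes and 0 CCAAT boxes. A match of letters is not a binding site.

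In lung fibroblasts the 10 genes together made up 0.707% ± 0.199 (SD, n = 3) of the signal in control mice and 0.599% ± 0.183 (n = 3) in depleted mice. In skin fibroblasts the share was 0.693% ± 0.117 (n = 3) and 0.575% ± 0.0451 (n = 3). The total was thus of like size in both organs, but it was made up of different genes. Levels of different genes are compared below as signal per kb of exon, taken over the 6 fibroblast libraries of an organ.

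Microfibril-associated genes led in both organs. In lung fibroblasts Mfap4 had a median of 1702 units per kb, higher than 99.7% of the genes measured, and 69.3% to 84.5% of the summed per-kb signal of the 10 genes. Mfap5 followed at 275 and Mfap2 at 119, and the ranges of these 3 genes did not overlap one another. Eln (55.3) and Fbln1 (46.0) came next, and the range of each overlapped that of the gene above it. Efemp2 (13.9), Fbn1 (12.6) and Emilin1 (11.5) could not be ordered among themselves beyond their spread. Fbln5 (1.61) and Fbln2 (1.46) stood last, with 0 to 5 and 1 to 3 reads per library.

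Skin fibroblasts had another order. Mfap2 stood first with a median of 1162 units per kb, followed by Mfap4 with 760, whose range overlapped that of Mfap2, and by Mfap5 with 215. Then came 6 genes, each overlapping the next in order, from Fbln2 (69.7), Fbn1 (59.9), Eln (58.8) and Fbln5 (56.3) to Fbln1 (34.6) and Efemp2 (33.0). Fbln2 and Eln lay wholly above Fbln1 and Efemp2. Emilin1 was lowest at 7.34 and below the range of Efemp2. All but Emilin1 were higher than at least 89.1% of the genes measured in skin.

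Ratios between genes of 1 library are free of the scaling of that library, and all but 1 of those taken separated the organs. The exception was Mfap2 over Fbn1, per kb, which overlapped at 3.59 to 14.9 in lung and 11.8 to 24.5 in skin. Mfap4 over Mfap2, per kb, was 9.70 to 33.7 in the 6 lung fibroblast libraries and 0.599 to 0.718 in the 6 skin libraries. Mfap2 over Mfap5 was 0.155 to 0.566 in lung and 2.42 to 11.6 in skin. Eln over Fbn1 was 3.05 to 12.5 in lung and 0.699 to 1.32 in skin, so elastin mRNA exceeded fibrillin mRNA per kb in every lung library and was close to it in skin. Within the fibulins, Fbln1 had 248 estimated reads over the 6 lung libraries, where Fbln2 and Fbln5 had 12 each. In skin, Fbln1 over Fbln2 was 0.375 to 0.756 and Fbln1 over Fbln5 was 0.533 to 1.10. These are descriptions, since organ, gate and table differ together. The ratios are per kb of all annotated exons and would shift with the transcript forms in use.

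**Figure D1:**
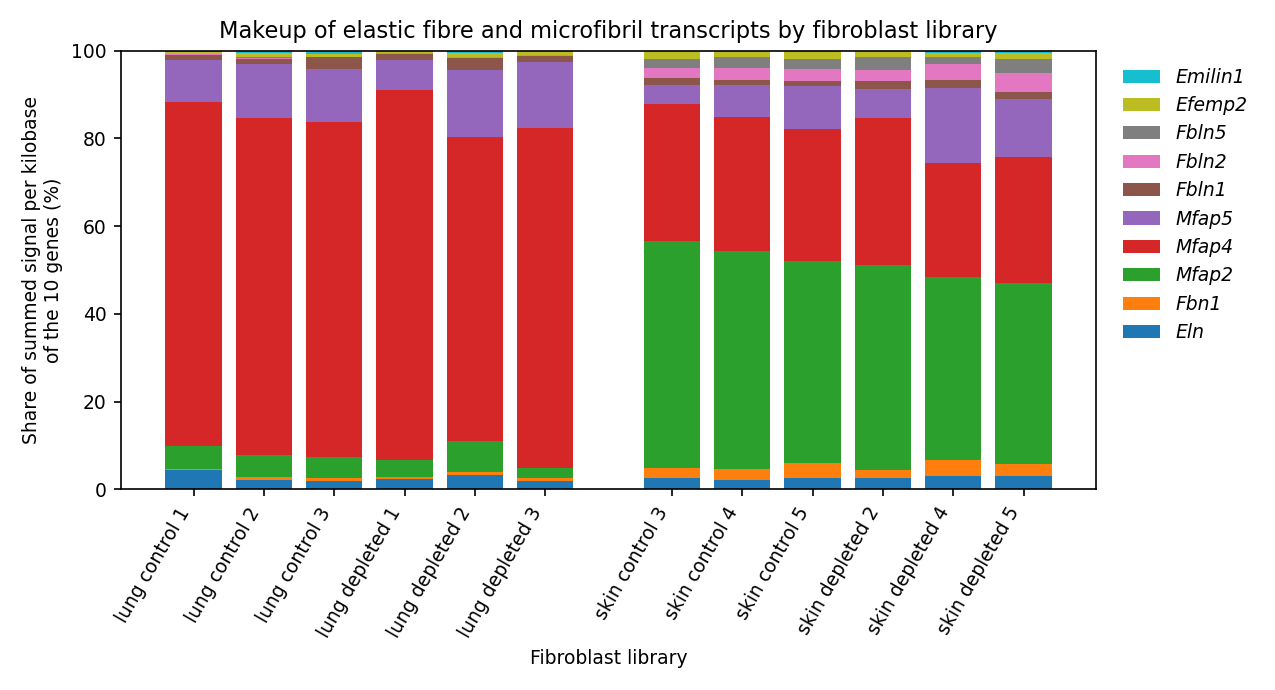
Share of each of the 10 genes in their summed signal per kb (%, y axis) in each fibroblast library (x axis), lung on the left and skin on the right, without replicate averaging. Mfap4 takes 69.3% to 84.5% of the bar in lung and 25.9% to 33.5% in skin, and Mfap2 takes 2.30% to 7.14% in lung and 41.3% to 51.9% in skin.

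The spread between libraries differed among the genes. In lung fibroblasts Fbn1 varied least over the 6 libraries, with a coefficient of variation of 5.23%, and Eln varied by 61.1%. Fbn1 rested on 23 to 44 reads per library there. Counting error alone spreads such numbers more widely, so the low value is no measure of how steady Fbn1 was. In skin fibroblasts Eln varied by only 8.29% and Fbn1 by 29.4%. The highest Eln value in lung was that of control 1, with 1212 units, where the other 5 libraries held 285 to 602. That library also had the highest sum of the smooth muscle and pericyte markers Acta2, Tagln and Mcam, 0.0167% of signal against 0.00635% to 0.0110% in the other 5. Acta2, a smooth muscle actin, was at 67.2 units there and at 22.4 to 37.4 in the others. The part of such cells in the Eln value was not tested.

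The first comparison asks whether fibroblasts of the lung changed these genes when neutrophils were depleted. None of the 10 passed the threshold of an adjusted p below 0.05 (limma, Benjamini-Hochberg over 11866 genes), where 1 gene in all was called, which is 0.00843% of those tested. That gene was Scgb1a1, a lung epithelial marker, which was higher in depleted libraries. At an unadjusted p below 0.05, 1 of the 10 and 5.04% of all genes were found. The log2 fold change was negative for 8 of 10, with a median of -0.22 against -0.01 over all genes.

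Eln signal was 1212, 419 and 341 in control and 602, 476 and 285 in depleted lung fibroblasts, and the groups overlapped. Its fold change was 0.779 with a 95% interval of 0.536 to 1.13. Without control 1 the log2 difference turned from -0.36 to 0.20. Emilin1 was the gene with the lowest p, at 67.8, 60.7 and 80.2 in control and 17.0, 52.5 and 32.8 in depleted libraries. These groups did not overlap, as in 9.2% of all genes. The log2 fold change was -1.14 with an SE of 0.46 (adjusted p = 0.969 by limma, which was 0.0140 before adjustment over all genes). It rested on 44 reads in control and 24 in depleted libraries.

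The microfibril genes of lung fibroblasts were level or slightly lower in depleted mice, all with overlapping groups. Fbn1 held 145, 153 and 159 units in control and 160, 154 and 140 in depleted libraries. Its fold change of 0.992 had an interval of 0.662 to 1.49. Mfap4, the most abundant member, was at 5235, 3455 and 3086 in control and 5146, 2484 and 2677 in depleted libraries (log2 fold change -0.24 ± 0.26). Mfap5 was at 1187, 1043 and 911 against 766, 1019 and 958, and Mfap2 at 216, 142 and 119 against 146, 161 and 50.1. Depleted library 3 alone carried the low Mfap2 value, and the log2 difference of -0.54 had an interval of -1.19 to 0.12.

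Of the fibulins in lung fibroblasts, Fbln1 held 194, 118 and 245 units in control and 208, 235 and 123 in depleted libraries. Efemp2 was at 57.3, 83.8 and 48.1 against 44.3, 60.2 and 39.7. Both groups overlapped for each of these genes. Fbln2 had 6 reads in either group, and Fbln5 had 5 reads in control, all from 1 library, and 7 in depleted libraries. No change of these last 2 genes could be detected at this depth.

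Markers of other cells differed beside these results in lung. The lung epithelial list (Epcam, Sftpc, Sftpb, Scgb1a1, Cdh1 and Krt8) summed to 0.168% to 0.511% of signal in depleted and 0.0434% to 0.194% in control fibroblast libraries, mostly from Sftpc and Scgb1a1, and highest in depleted library 3, which had the low Mfap2 value. Fibroblast markers summed to 0.282% to 0.349% and 0.329% to 0.411%. Their part in the values of the 10 genes was not tested.

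**Figure D2:**
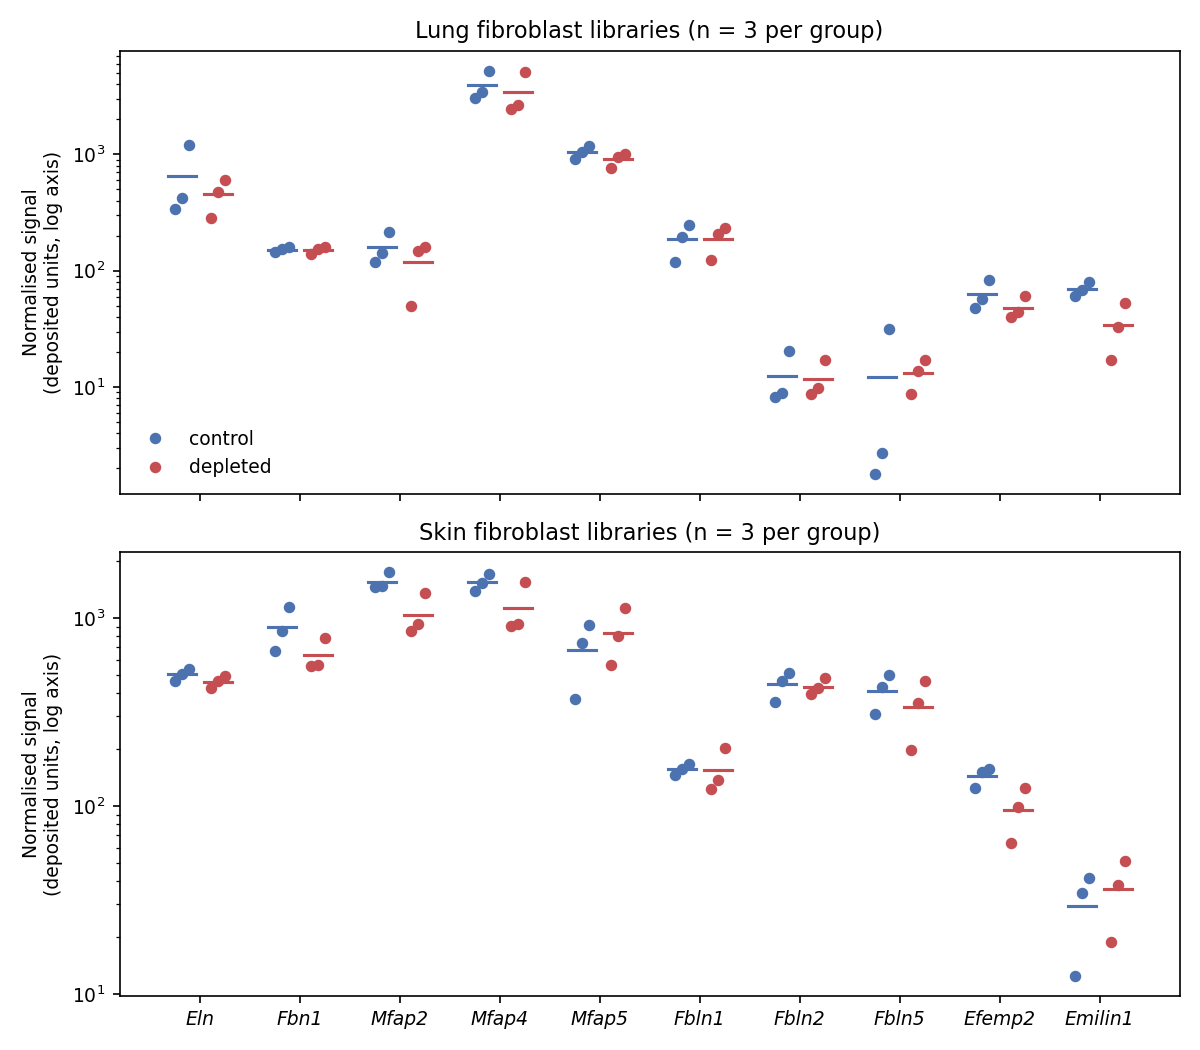
Normalised signal of each gene (y axis, log scale, deposited units) in each fibroblast library of lung (top) and skin (bottom). Points are libraries, 3 per group, and bars are group means. The groups overlap for every gene except Emilin1 in lung and Mfap2 in skin.

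The same question was asked of skin fibroblasts, where the depth was far greater. Again none of the 10 genes was called (limma), as was none of the 11780 genes tested (0%). At an unadjusted p below 0.05 there were 0 of 10 members and 2.39% of all genes. The log2 fold change was negative for 8 of 10, with a median of -0.23 against 0.03 over all genes.

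Eln was nearly level in skin fibroblasts, with 464, 506 and 537 units in control libraries (3, 4 and 5) and 488, 463 and 421 in depleted libraries (2, 4 and 5). The fold change of 0.911 had an interval of 0.630 to 1.32. Mfap2 was the only member whose groups did not overlap, as in 8.47% of all genes. It held 1460, 1747 and 1479 units in control and 1355, 924 and 848 in depleted libraries, which is -0.61 ± 0.29 (SE) on the log2 scale, with an adjusted p of 0.956 by limma. Mfap4 held 1387, 1717 and 1532 against 1544, 908 and 930. Depleted library 2 was thus within the control range for Mfap4, while libraries 4 and 5 were below it.

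Fbn1 was at 668, 854 and 1150 units in control and 553, 784 and 565 in depleted skin fibroblasts, with an interval of the fold change from 0.461 to 1.13. Mfap5 was at 372, 740 and 921 against 559, 1132 and 805, and its log2 difference of 0.34 turned to -0.05 without control 3. The fibulins Fbln1 (157, 166 and 145 against 203, 138 and 122) and Fbln2 (356, 509 and 463 against 392, 424 and 476) had log2 differences of -0.05 and -0.03. Fbln5 was at 308, 494 and 427 against 460, 199 and 352. Efemp2 was at 158, 125 and 151 against 125, 63.6 and 98.1, which overlapped by its highest depleted and lowest control library, with a log2 fold change of -0.64 ± 0.33. Emilin1 ran from 12.5 to 41.3 in control and from 18.8 to 51.0 in depleted libraries.

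The depleted skin fibroblast libraries differed from each other in keratinocyte transcripts. The skin epithelial list (Krt5, Krt14, Krt15, Krt10, Cdh1 and Epcam) summed to 1.31% of signal in each of depleted libraries 4 and 5 and to 0.113% in depleted library 2, against 0.263% to 0.386% in control libraries. Fibroblast markers summed to 5.16% to 7.29% in depleted and 8.03% to 10.2% in control libraries, without overlap. Libraries 4 and 5 both held less Mfap2, Mfap4, Efemp2, Eln, Fbln1 and Fbln5 than depleted library 2. Both held more Fbn1, Mfap5, Fbln2 and Emilin1 than library 2. The Mfap2 difference was -0.81 without depleted library 2, -0.54 without library 4 and -0.48 without library 5. Without library 2, 16 genes were called, all higher in depleted libraries and none of them a member. The part of the epithelial signal in these differences was not tested.

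**Figure D3:**
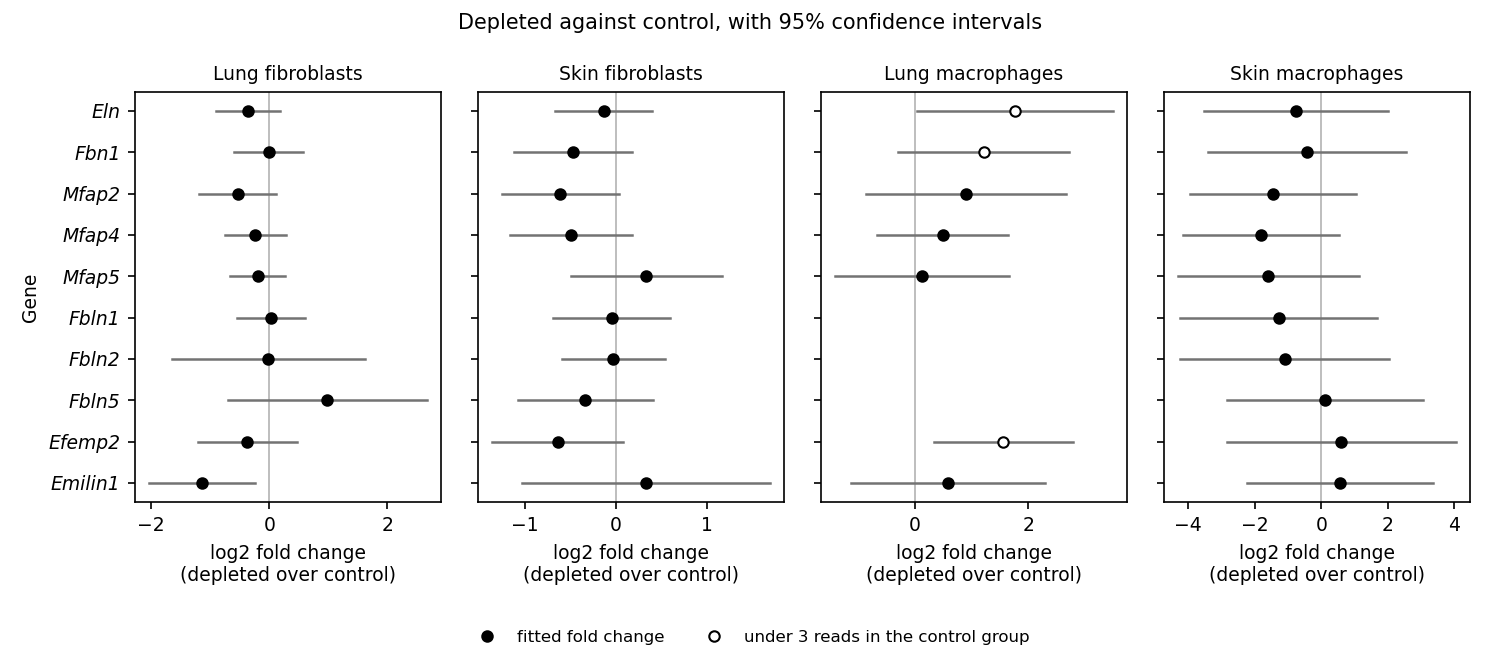
Log2 fold change of depleted over control (x axis, with a range of its own in each panel) for each gene (y axis) in the 4 sorted populations, with 95% confidence intervals from limma. Open points mark genes with under 3 reads in the control group, and Fbln1, Fbln2 and Fbln5 are left out in lung macrophages, where both groups had at most 1 read. None of the 10 genes was called in any panel.

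Macrophages carried little of these transcripts. Lung macrophages gave the 10 genes 0.00834% ± 0.00217 (SD, n = 3) of signal in control and 0.0128% ± 0.00433 (n = 3) in depleted mice. None was called between these groups (limma), where 59 genes in all, or 0.497%, passed. The count at an unadjusted p below 0.05 was 2 of 10 against 7.96% of all genes, and 0 of 10 members had groups that did not overlap, against 12.2% of genes. The fitted log2 fold change was positive for 10 of 10, with a median of 0.67 against 0.04 over all genes. That sign count does not stand for 10 rises. Each signal holds 0.5 read times the constant of its library, 2.997 to 5.94 in control and 5.89 to 6.21 in depleted libraries. Fbln2 and Fbln5 each had a fitted value of 0.32 with 0 reads in every library. Mfap5 had a fitted value of 0.12, although its mean signal was 23.3 in control and 21.4 in depleted libraries. Fbln1, Fbln2 and Fbln5 had at most 1 read in all. The other 7 genes had a median of 0.90, which is the fitted value of Mfap2, with Efemp2 taken against a floor of 3 control reads. Mfap2 had 9 reads in control libraries, all in 1 library, and 5 in depleted libraries. Its mean signal was 11.2 in control and 13.2 in depleted libraries, so the 0.90 does not stand for a typical rise. The members with an unadjusted p below 0.05 were Eln and Efemp2. Eln had 2 reads in control libraries and 9 in depleted libraries, a ratio of 6.60 with an exact (Clopper-Pearson) 95% interval of 1.37 to 62.7 for counting error alone and an adjusted p of 0.617 (limma). Efemp2 had 0 and 4 reads, of which 3 came from depleted library 2 (adjusted p = 0.445, limma). With the control group set to 3 reads in all, its ratio was 1.95. That value takes the 4 reads as exact, so it is not a lower limit. Fbln2 and Fbln5 had 0 reads in all 6 libraries, and Fbln1 had 1.

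The number of reads limits this comparison: Mfap4 had 22 reads in control and 25 in depleted lung macrophages, and Mfap5 had 15 and 9. Neutrophil markers (S100a8, S100a9, Retnlg, Cxcr2, Ly6g and Csf3r) summed to 0.720% to 1.57% of signal in control and 0.142% to 0.179% in depleted lung macrophages. Lung epithelial markers ran the other way, from 0.179% to 0.804% in control to 0.822% to 1.91% in depleted libraries. Fibroblast markers summed to 0.00486% to 0.00572% and 0.00351% to 0.00599%. The part of these other cells in the member values was not tested.

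For skin macrophages 4 depleted libraries were compared with the single remaining control library, number 3, which is assumed to vary like the depleted libraries. None of the members was called (limma), nor was any of 10865 genes (0%), and at an unadjusted p below 0.05 there were 0 of 10 members and 5.8% of genes. The log2 fold change was negative for 7 of 10, with a median of -0.93 against -0.12 over all genes. The control library lay above the depleted ones for 3 members and below them for 1, and with 1 library on one side 45.7% of all genes did not overlap. Mfap4 held 49.95 units in the control library and 21.0, 16.1, 24.3 and 3.68 in depleted libraries 1, 2, 3 and 5. Mfap5 held 9.58 against 1.53, 3.09, 3.94 and 1.67, and Fbln1 5.50 against 0.0809, 3.78, 4.01 and 0.716. Emilin1 was the member lower in the control library, at 4.06 against 16.1, 4.16, 4.35 and 5.66. The fibroblast markers were lower in depleted libraries in 7 of 7 tested, with a median of -1.58. The control library also had the highest sum of fibroblast markers, 0.178% of signal against 0.0217% to 0.108%, and of skin epithelial markers, 0.555% against 0.127% to 0.306%. The part of these cells in the difference was not tested.

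Sorted fibroblasts were set against sorted macrophages to show which cells hold the transcripts. In lung all 10 genes were called higher in fibroblasts (limma, 6 libraries against 6), as were 18.1% of all genes, within 36.6% called in either direction. The median log2 fold change was 4.02 for the members and 0.09 for all genes. Scaled to library totals the median of all genes was 0.46, and 3433 genes were called higher and 1551 lower in fibroblasts, against 2149 and 2191 on the deposited scale. All 10 members stayed called under that scaling.

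Mfap4 had the largest fitted difference of the members in lung, with 2484 to 5235 units in fibroblasts and 15.5 to 95.4 in macrophages (log2 fold change 6.59 ± 0.29, adjusted p = 8.44e-18, limma). Mfap5 and Eln followed with 5.61 ± 0.30 and 5.51 ± 0.37. Fbln1 had 248 reads in fibroblasts and 1 in macrophages, a ratio of 227 with a counting interval of 40.3 to 8994, so which of Mfap4 and Fbln1 differed more cannot be told. Fbn1 (4.36 ± 0.39), Mfap2 (3.67 ± 0.44) and Efemp2 (3.29 ± 0.46) were also higher, and no library of either type crossed over. Emilin1 had the smallest difference of the well-covered genes, 1.91 ± 0.41, from 17.0 to 80.2 units in fibroblasts and from 4.49 to 21.5 in macrophages.

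Fbln2 and Fbln5 had 12 reads each in lung fibroblasts and 0 in lung macrophages. With the macrophages set to 3 reads in all, the ratio was 3.66 for each. That value takes the 12 reads as exact, so it is not a lower limit. The Fbln5 call ended without control fibroblasts 2 (adjusted p = 0.122), control macrophages 2 (adjusted p = 0.0637) or depleted fibroblasts 1 (adjusted p = 0.0584, limma). In control mice alone 9 of the 10 were called, without Fbln5. In depleted mice alone 7 were called, without Fbln2, Fbln5 and Emilin1.

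In skin the depleted mice gave 3 fibroblast and 4 macrophage libraries with matching labels. All 10 genes were called higher in fibroblasts, as were 12.7% of all genes, within 24% called in either direction. Scaled to library totals the split was 1912 higher and 1054 lower, against 1529 and 1372, and the median of all genes moved from 0.11 to 0.41. No fibroblast library overlapped a macrophage library for any member. Mfap5 differed most, with 559, 1132 and 805 units against 1.53, 3.09, 3.94 and 1.67 (log2 fold change 7.86 ± 0.43, adjusted p = 7.76e-07, limma). Fbn1 followed with 7.00 ± 0.55 and Mfap4 with 6.23 ± 0.54. Eln was 48.8-fold higher, with an interval of 21.4 to 112.

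Emilin1 again had the smallest difference, 2.19 ± 0.67 with an adjusted p of 0.0391 (limma). That call ended when any 1 of 6 of the 7 libraries was left out, the exception being depleted macrophages 1, with adjusted p from 0.0535 to 0.147. From reads pooled over libraries, Emilin1 in macrophages stood at 17.7% of its fibroblast level in lung and 16.3% in skin, the highest of the members with over 3 macrophage reads. For the 7 such members in lung the macrophage level was 1.12% to 17.7% (median 3.87%) of the fibroblast level, and for the 10 in skin it was 0.317% to 16.3% (median 1.90%). The fibroblast markers with over 3 reads were at 0.583% to 3.45% (median 1.25%, 5 genes) and 0.913% to 11.6% (median 1.35%, 8 genes). Fbn1 and Efemp2 rest on 7 and 4 macrophage reads in lung, and Fbln2 and Fbln5 had 0 there.

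The libraries labelled skin control macrophages 1 and 5 had the members at fibroblast levels. Summed over the 10 genes they held 0.580% and 0.759% of signal, against 0.00320% to 0.0142% in the other 5 skin macrophage libraries. Library 5 lay within the range of the 6 skin fibroblast libraries for 8 of 10 genes and above it for 2. Library 1 lay within it for 5, above it for 2, namely Eln with 632 units and Mfap4 with 1901, and below it for 3, namely Fbn1, Fbln1 and Fbln2. Library 5 was above the other skin macrophage libraries for 10 of 10 genes and library 1 for 9, with Emilin1 at 16.0 against 4.06 to 16.1 there. Set among the controls as labelled, these libraries would give skin macrophages log2 differences of -4.18 for Eln and -5.83 for Mfap5, with adjusted p of 0.0984 and 0.0885 (limma) and no member called.

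**Figure D4:**
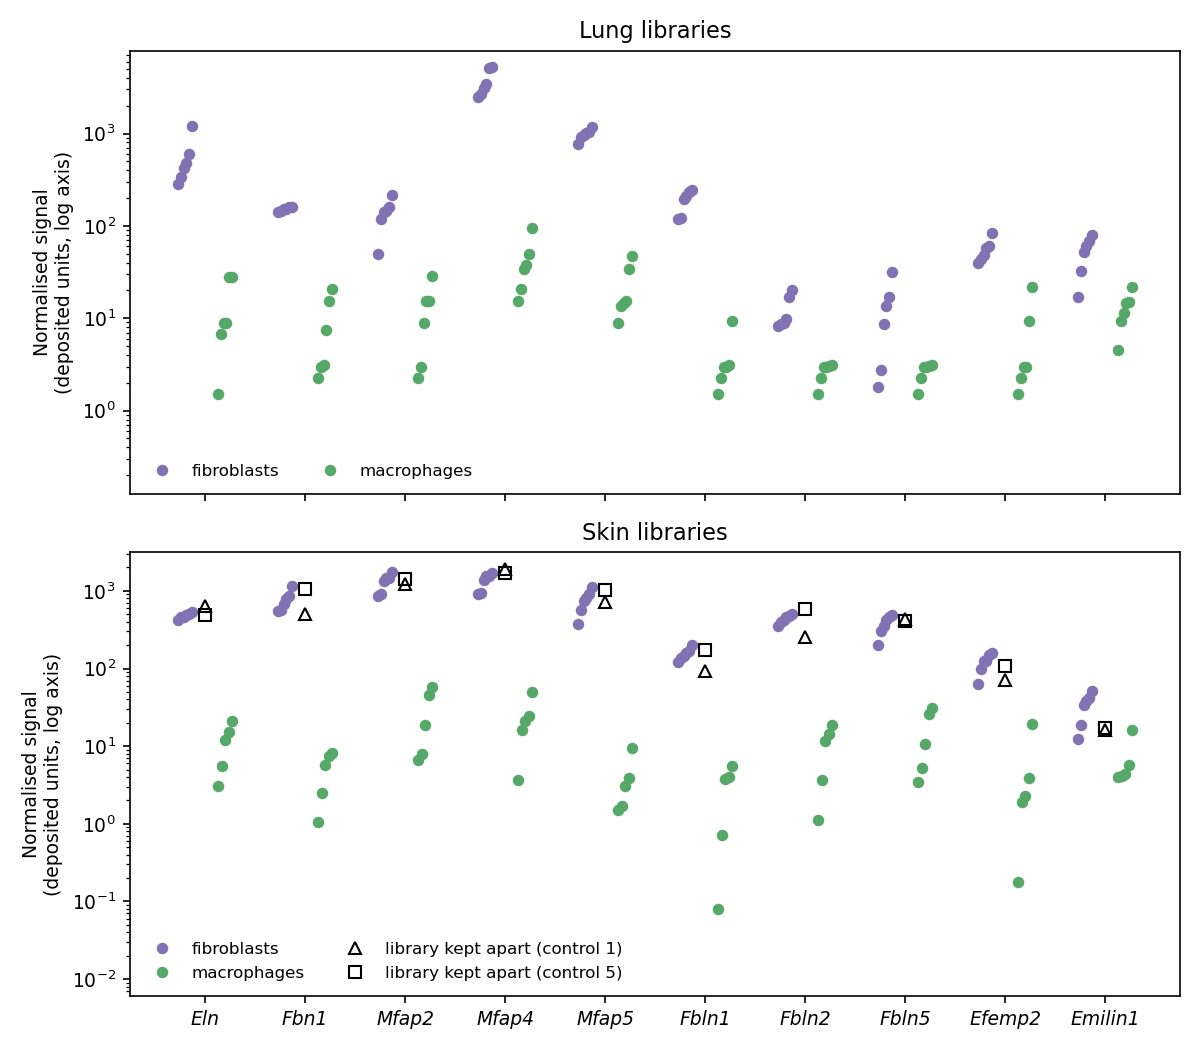
Normalised signal of each gene (y axis, log scale, deposited units) in fibroblast and macrophage libraries of lung (top) and skin (bottom), with each point a library. Open symbols are the libraries labelled skin control macrophages 1 (triangle) and 5 (square), which sit at or near the fibroblast points for every gene. For Emilin1, library 1 also lies within the range of the other skin macrophages, at 16.0 against 4.06 to 16.1. Of the signal of libraries 1 and 5, 0.580% and 0.759% came from the 10 genes.

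Genes that act with the members were counted from 6 fixed lists of 52 genes. In fibroblasts of neither organ was a gene of these lists called between depleted and control mice (limma). The microfibril and elastic fibre relatives were lower in depleted mice in 8 of 9 measured in lung and 10 of 10 in skin, with medians of -0.56 and -0.42 against -0.01 and 0.03 over all genes. The fibroblast markers were lower beside them, in 5 of 7 in lung with a median of -0.04 and in 8 of 8 in skin with a median of -0.52, and their part in these values was not tested. Adamts10 and Adamtsl4 had the lowest p in lung, and Adamtsl5 and Bgn in skin. Of the elastin cross-linking and folding genes, 4 of 6 were lower in lung (median -0.38) and 4 of 7 in skin (median -0.02). Among them Lox, the main lysyl oxidase, had log2 differences of 0.29 in lung and -0.49 in skin, neither called. The lowest p in that list was held by Fkbp10 and Loxl1 in lung, and by Loxl2 and Loxl4 in skin. The latent TGF-beta binding proteins, relatives of fibrillin, were lower in 3 of 4 in lung and 4 of 4 in skin, none called. Ltbp2 and Ltbp4 had the lowest p of these in lung, and Ltbp2 and Ltbp1 in skin. The elastic fibre receptors were lower in 2 of 8 in lung and 7 of 8 in skin, none called.

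Among these lists, only elastin-degrading proteases and their inhibitors held genes called between genotypes. In lung macrophages Mmp9, a gelatinase that neutrophils store, fell with a log2 fold change of -3.62 (adjusted p = 4.12e-06, limma). Slpi, an inhibitor of neutrophil elastase, fell by 1.93 on the log2 scale (adjusted p = 3.37e-06, limma). They were 1 of 7 proteases and 1 of 6 inhibitors tested, where 0.497% of all genes were called. Both calls ended without the variance trend (adjusted p = 0.181 for Mmp9 and 0.388 for Slpi, limma). The Mmp9 call also ended without control 2 (adjusted p = 0.0986, limma) or control 3 (adjusted p = 0.0673, limma). Neutrophil markers were lower in the same depleted libraries, as given above, and their part in both calls was not tested. No gene of the 6 lists was called in skin macrophages (limma).

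Between cell types the same lists were counted against the 18.1% of all genes called higher in fibroblasts in lung and the 12.7% in skin. The latent TGF-beta binding proteins Ltbp1, Ltbp2, Ltbp3 and Ltbp4 were all called higher in lung fibroblasts, led by Ltbp4 with a log2 fold change of 6.25, and 3 of 4 were in skin. Cross-linking and folding genes were called higher in 5 of 6 in lung and 5 of 7 in skin, with Lox at 6.54 and 5.55. Of the relatives, 4 of 9 in lung and 6 of 10 in skin were higher in fibroblasts, among them Bgn and Efemp1, while Emilin2 was higher in macrophages in both (log2 fold change -2.79 and -1.46). Emilin1 and Emilin2 thus had opposite signs in each organ.

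Proteases were divided between the cell types. Ctss (log2 fold change -6.45 in lung and -10.38 in skin), Mmp12 (-5.12 and -7.06) and Mmp9 (-3.78 and -5.15) were higher in macrophages. Mmp2, Mmp14 and Ctsl were higher in fibroblasts of both organs, and Mmp2 reached 5.65 and 5.81. Ctsk was higher in macrophages in lung (-2.13) and in fibroblasts in skin (1.98), each called. Among inhibitors Serpina3n, Timp1, Timp2 and Timp3 were higher in fibroblasts of both organs. Slpi was higher in lung macrophage libraries (-5.81) and Cst3 in those of skin (-1.46). In lung, 6 of 6 neutrophil and 5 of 6 lung epithelial markers were also called higher in macrophage libraries. In skin, 2 of 3 neutrophil markers tested were. The part of such cells in the Slpi and Mmp9 values was not tested. Of 8 elastic fibre receptor genes, 3 were called in each organ, all higher in fibroblasts, with Itga8 and Itgb5 in both, Itgb1 in lung and Itgb3 in skin. Of all genes, 36.6% in lung and 24% in skin were called in either direction, so the receptor count in lung is near that share.

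Across libraries the gene patterns most like Eln are given as a description, since macrophages and fibroblasts form 2 clusters and the libraries share scaling within a table. Over the 12 lung libraries the 5 likest non-members were Igfbp6, Kdelr3, Ccn5, C1qtnf2 and Adamts17, each with a Pearson r of 0.98 on the log2 scale. Over 11 skin libraries they were Pcolce, Serping1, Ppic, Aspn and Tnc, each with 0.99. Among the members the value ran from 0.60 for Fbln5 to 0.97 for Fbln1 in lung, and from 0.84 for Emilin1 to 0.98 for Mfap4, Fbln2 and Fbln5 in skin.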

How the data were processed

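RNA-seq values of 10 genes were taken from 25 libraries of sorted cells. Libraries were made with the Ovation Single Cell RNA-Seq System and read as single-end reads, per the labels' protocols. The submitters' processing notes name CASAVA 1.8, cutadapt 1.7.1, RSEM 1.7.1, limma 3.46 and mm10, without role or order, and how values were normalised is not given in the sources used here. Per organ, the authors deposited a table of normalised signal. Every deposited signal equals an estimated read number plus 0.5, times a constant of the library, so estimated reads could be recovered, at steps of 0.01 read. They are not counts, and no count model was used. Depth was 124075 to 385923 estimated reads in lung and 6553115 to 27259903 in skin. A row for a spike-in control in the lung table was left out.

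Groups came from the genotype and cell type labels. Identifiers were matched to symbols in GENCODE M21 (GRCm38) for 11829 of 11866 lung and 12641 of 12661 skin genes, and per-kb values use its exon lengths. Each of 6 comparisons was fitted over all genes in R 4.3.3 by limma 3.58.1, as a linear model with empirical Bayes moderation along a variance trend, and tested two-sided. The fit used log2 of signal plus 1 ppm of the mean library total, for genes at 1 ppm or more in at least 3 libraries. This scale understates fold changes of low genes. A gene with an adjusted p (Benjamini-Hochberg) under 0.05 counts as called. The fit was also run on simulated data with 1 common spread, where changes were placed only in genes outside the lowest levels. That run gives no measure of the fit for genes on few reads. Ratios on few reads have exact Clopper-Pearson 95% intervals, for counting error only. A group at 0 reads is set to a floor of 3 reads, which leaves out counting error in the other group. Named beyond the 10 genes were some called genes of 6 pathway lists, Lox, the 5 genes most like Eln, and 8 marker lists. Where a pathway list held no called gene, the 2 of lowest p were named for some lists only. The mesothelial markers (Msln, Upk3b, Wt1 and Lrrn4) were in neither table. The members and lists were chosen with earlier results of these data known. Alternatives covered the pseudocount, filter, scaling, variance model, libraries fitted and replicate block.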

Additional observations from a re-analysis of the deposited data

Results flagged for a closer look

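The 10 elastic fibre and microfibril genes summed to 0.580% of the signal in the library labelled skin control macrophages 1 and to 0.759% in the library labelled skin control macrophages 5. Neither library is used in a comparison of the report, and both values lie above the single remaining control macrophage library, which held 0.0142%. They were noted because signal appeared in libraries that stand outside the comparisons. Each of the 10 genes was also tested, in the 4 depleted skin macrophage libraries, for a single library far from the others. On the signal scale this was so for Emilin1, with 16.1 units in library 1 against 4.16 to 5.66 in the other 3, a gap of 0.875 of the range against Dixon's limit of 0.829. On the log2 scale the gap was 0.774 and did not pass, and no other gene passed on either scale. The log2 test came first and the signal scale was added after it. Chance passes this limit in about 1 of 20 such groups.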

How the results depend on the processing

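No member was called between depleted and control libraries under any alternative, block and left-out libraries included. All 10 remained called between cell types in both organs under every scaling and filter, except Emilin1 in skin without a further pseudocount (adjusted p = 0.0602, limma). The count of genes called is less stable. For lung fibroblasts it was 1, and 0 with a filter of 10 ppm, quantile normalisation, no variance trend or a model of 4 groups, 2 with library totals, and 0 to 7 with 1 library left out. For lung macrophages it was 59, and 27 with quantile normalisation, 0 without variance trend, 18 with 4 groups, and 11 (without control 2) to 68 with 1 library left out. For skin fibroblasts it was 0, and 0 to 16 with 1 library left out. For skin macrophages it was 0, and 1 with 5 ppm as pseudocount, 63 without filter, 2 with quantile normalisation, and 0 to 16 with 1 library left out. For lung cell types it was 4340, and 2757 in control and 2732 in depleted mice alone, where fewer libraries entered.

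Some of the differences between genotypes, none of them called, changed sign. In lung fibroblasts, with 1 library left out, the log2 difference ranged from -0.71 to 0.20 for Eln, -0.26 to 0.31 for Fbln1, -0.30 to 0.37 for Fbln2 and -0.053 to 0.044 for Fbn1. In skin fibroblasts it ranged from -0.26 to 0.10 for Fbln1, -0.18 to 0.082 for Fbln2, -0.60 to 0.00088 for Fbln5, -0.048 to 0.61 for Mfap5 and -0.17 to 0.73 for Emilin1, and Fbln2 was 0.016 with library totals. In lung macrophages the ranges were -0.35 to 0.79 for Mfap5 and -0.084 to 1.18 for Mfap4. In skin macrophages they were -0.33 to 0.60 for Fbln5 and -0.10 to 1.22 for Efemp2, and Fbn1 was 0.15 with quantile normalisation. With all 3 controls as labelled, Fbln5 was -3.35, Efemp2 -2.66 and Emilin1 -0.62. The cause of these changes was not tested.

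The labels do not say that a shared number marks a shared animal, so the numbers were not taken to pair samples. Samples with the same number correlated at -0.10 to 0.15, and those with different numbers at -0.17 to 0.19. The values were centred within small groups, so these correlations cannot decide whether samples were paired. With replicate number as a block, 4 genes were called in lung fibroblasts, 67 in lung macrophages and 88 in skin fibroblasts (2 pairs), none a member. No paired analysis was possible for skin macrophages because depleted and control libraries share only the number 3. Depth limits the lung table most: Fbln2 and Fbln5 had 12 reads each in its 6 fibroblast libraries.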
